A study of Mus musculus with 106 samples.

Results

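Triglyceride, the form in which cells store fat, is assembled from glycerol 3-phosphate and activated fatty acids by a short series of acyltransferases, and 8 genes around this pathway are described here across tissues of mice kept at 10, 22 or 34 °C. They were chosen by name: Gpam, Agpat2, Lpin1, Dgat1, Dgat2, Mogat1, Mogat2 and Pnpla3. Each of the 8 has 1 row in all 4 deposited count tables, which list 21647 to 23420 genes.

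The glycerol phosphate route starts with Gpam, the mitochondrial glycerol-3-phosphate acyltransferase, which adds the first fatty acid. Agpat2 adds the second to make phosphatidate, Lpin1 (lipin-1) removes the phosphate to give diacylglycerol, and Dgat1 and Dgat2 add the last fatty acid. Mogat1 and Mogat2 reach diacylglycerol from monoacylglycerol, the route by which the intestine rebuilds dietary fat. Pnpla3 (adiponutrin) is a lipid droplet protein of the patatin-like phospholipase family that is expressed in adipocytes and hepatocytes and is induced by feeding.

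RNA was measured by bulk sequencing in male wild type C57BL/6J mice that were 8 weeks old at the start. Cold mice spent 5 days at 18 °C, 5 days at 14 °C and then 2 weeks at 10 °C, warm mice spent 4 weeks at 34 °C, and each set had its own controls at 22 °C. The mice of the cold set came from Janvier and those of the warm set from Charles River, and the sample labels give ages of 11 and 12 weeks. Libraries pooled 2 mice and numbered 3 in a group, with these exceptions: bone marrow had 6 and spinal cord 5 single mice in a group, quadriceps had 6 libraries at 22 °C, and in interscapular brown adipose tissue (iBAT) of the warm set each of 3 control libraries held 1 mouse, while the 34 °C libraries held 2 single mice and 1 pool of 2.

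In all, 106 libraries in 31 groups held 4262403 to 62880248 counts (median 21585677), and 16 comparisons were made: 11 tissues at 10 °C and 5 at 34 °C. Values are CPM (each library's counts scaled to a common total) after TMM scaling, a change is a log2 fold change against 22 °C with its standard error (SE), and a gene was said to rise or fall only at a Benjamini-Hochberg adjusted p under 0.05 in edgeR's quasi-likelihood F-test over all genes tested. These are whole tissues, so a change in RNA per cell and a change in the number of cells of a type cannot be told apart. The tissue labels were checked against cell type markers. The brain library labelled 22 °C replicate 2 summed to 70706 CPM over 7 hepatocyte markers, against 737 to 1103 CPM in the other 5 brain libraries. Over 9 adipocyte markers it summed to 2915 CPM, against 15.2 to 19.1 CPM. Liver libraries of the warm set at 22 °C held 2394 to 2949 CPM of the same 9 markers. That sum alone thus does not tell fat RNA from liver RNA. Libraries labelled perigonadal visceral fat (pgVAT) at 10 °C also carried epididymis markers, as given with that tissue.

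The genes lie apart in the genome (GRCm38, GENCODE M21) except for one pair. Gpam is at chr19:55067268-55127238, Agpat2 at chr2:26593057-26604417, Lpin1 at chr12:16535669-16610966 and Dgat1 at chr15:76502015-76511953, all on the minus strand. Dgat2 (chr7:99153658-99182719) and Mogat2 (chr7:99219084-99238619), relatives from one acyltransferase family, are neighbours on the minus strand of chromosome 7, 36.4 kb apart with 0 protein-coding genes between them. Mogat1 (chr1:78510991-78538173) and Pnpla3 (chr15:84167837-84187236) are on the plus strand. In exon sequence Agpat2 shares 64 bases with Egfl7 on the other strand, Mogat2 shares 55 with the antisense gene Gm45012, and Mogat1 shares 200 with BC035947, also on the other strand. Pnpla3 shares 105 exon bases with Gm49513, a transcript of its own strand. Whether the counting used strand is not given in the sources used here, so reads from these stretches cannot be assigned to one gene with certainty.

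Agpat2 and Pnpla3 passed the test in the most comparisons of the 8, and the 250 bases before their annotated starts (RefSeq, GRCm38.p6) are shown for that reason. Agpat2 is chr2:26604418-26604667, minus strand, and Pnpla3 is chr15:84167566-84167815, plus strand. The bases just after the start were found in a GENCODE transcript of the gene for Agpat2 but not for Pnpla3, so the Pnpla3 start is less certain. Capitals mark letters of searched motifs, on either strand.
Agpat2: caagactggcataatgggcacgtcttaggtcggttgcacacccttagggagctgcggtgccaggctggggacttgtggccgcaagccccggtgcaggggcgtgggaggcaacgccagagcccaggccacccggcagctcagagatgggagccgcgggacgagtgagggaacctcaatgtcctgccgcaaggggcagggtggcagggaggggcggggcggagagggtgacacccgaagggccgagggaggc
Pnpla3: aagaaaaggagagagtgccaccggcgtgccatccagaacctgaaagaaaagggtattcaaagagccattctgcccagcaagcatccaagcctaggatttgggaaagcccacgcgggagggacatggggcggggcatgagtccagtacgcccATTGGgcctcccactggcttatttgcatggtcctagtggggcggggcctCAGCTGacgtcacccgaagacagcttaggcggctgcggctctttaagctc
The motifs searched were the E-box CANNTG, its palindromic form CACGTG (which the first motif includes), the NF-Y box CCAAT, the sterol response element TCACNCCAC, the nuclear receptor motif AGGTCA and the TATA box TATAAA. The Pnpla3 window held CANNTG 50 bases and CCAAT, on the minus strand, 99 bases before the start, and the Agpat2 window, with 69.2% G and C, held none of the 6. Of 32851 promoter windows of this length, 66.2% hold CANNTG and 33.8% hold CCAAT, so these matches are common ones. The Lpin1 window held CANNTG at 199 and 189 and AGGTCA at 74 bases before the start; 14% of windows hold AGGTCA. The Mogat1 window held CANNTG at 223 and 105 bases, and the Gpam window before its outermost start held CCAAT at 74 bases. The Mogat1 window ends at chr1:78511059, inside the gene as placed above. The entries matched were those of Gpam, Agpat2, Lpin1, Mogat1 and Pnpla3, and Dgat1, Dgat2 and Mogat2 were not matched.

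In the 22 °C controls of the cold set, with all 6 controls for quadriceps, every gene except Mogat2 had its highest mean in a fat depot, but the order of tissues differed. Tables were scaled within a tissue, so levels across tissues are descriptions, and neighbours in an order are called separate only where their libraries do not overlap. Pnpla3 was highest in the 3 fat depots, at 681 ± 264 CPM (SD, n = 3) in pgVAT, 529 ± 133 (SD, n = 3) in inguinal subcutaneous fat (ingSAT) and 482 ± 172 (SD, n = 3) in iBAT, and the libraries of these depots overlapped. The next tissue was spinal cord with 22.8 ± 1.83 CPM (SD, n = 5), lower than iBAT by 21.1 times, and hypothalamus followed with 21.3 ± 1.38 (SD, n = 3). Liver held 2.41 ± 3.08 CPM (SD, n = 3), a mean set by 1 library at 5.96 beside 0.542 and 0.720, and bone marrow was lowest at 0.186 ± 0.0983 (SD, n = 6).

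Agpat2 had its highest level in iBAT, at 1560 ± 125 CPM (SD, n = 3), which did not overlap ingSAT at 665 ± 226 (SD, n = 3). It then stood at 378 ± 52.4 CPM (SD, n = 3) in pgVAT, 271 ± 23 (SD, n = 3) in liver and 199 ± 11.0 (SD, n = 3) in ileum, and was 18.8 ± 9.66 (SD, n = 6) in quadriceps. Its lowest level was 2.86 ± 0.698 CPM (SD, n = 5) in spinal cord. Dgat2 was likewise led by iBAT, pgVAT and ingSAT, with means of 2422, 1693 and 1687 CPM that overlapped, and liver came next at 400 ± 33.1 CPM (SD, n = 3).

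Dgat1 ranked the tissues otherwise: ileum, at 365 ± 42.6 CPM (SD, n = 3), overlapped iBAT at 401 ± 107 (SD, n = 3), while in the controls of the warm set ileum, at 589 ± 41.8 (SD, n = 3), lay above iBAT at 459 ± 68.8 (SD, n = 3) without overlap. In the cold set liver held 26.3 ± 3.29 (SD, n = 3) and quadriceps, the lowest, 13.4 ± 3.11 (SD, n = 6). Lpin1 stood at 474 to 649 CPM on average in iBAT, pgVAT, ingSAT and quadriceps, whose libraries overlapped in that order, and the next tissue, spinal cord, stood at 126 ± 6.85 CPM (SD, n = 5). Gpam was highest in iBAT at 676 ± 319 CPM (SD, n = 3) and lowest in ileum at 24.6 ± 2.87 (SD, n = 3).

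The monoacylglycerol acyltransferases split by organ. Mogat2 reached 197 ± 21.5 CPM (SD, n = 3) in ileum, 9.35 times the 21.03 ± 1.70 (SD, n = 6) of bone marrow, and was at 3.18 CPM or less on average in every other tissue. Mogat1 was confined to low levels, with 36.04 ± 12.5 CPM (SD, n = 3) in pgVAT, 23.8 ± 5.98 (SD, n = 3) in ingSAT, 7.04 ± 0.327 (SD, n = 3) in iBAT and at most 1.19 CPM on average elsewhere. Per kilobase of annotated exon, the levels in iBAT at 22 °C were 786 CPM per kb for Dgat2, 732 for Agpat2, 311 for Pnpla3, 131 for Dgat1, 101 for Gpam, 67.1 for Lpin1, 4.52 for Mogat1 and 1.36 for Mogat2. Dgat1 was thus the minor of the DGAT genes in brown fat and the major one in ileum, where per kilobase it was at 119 CPM against 27.98 for Dgat2.

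**Figure D1:**
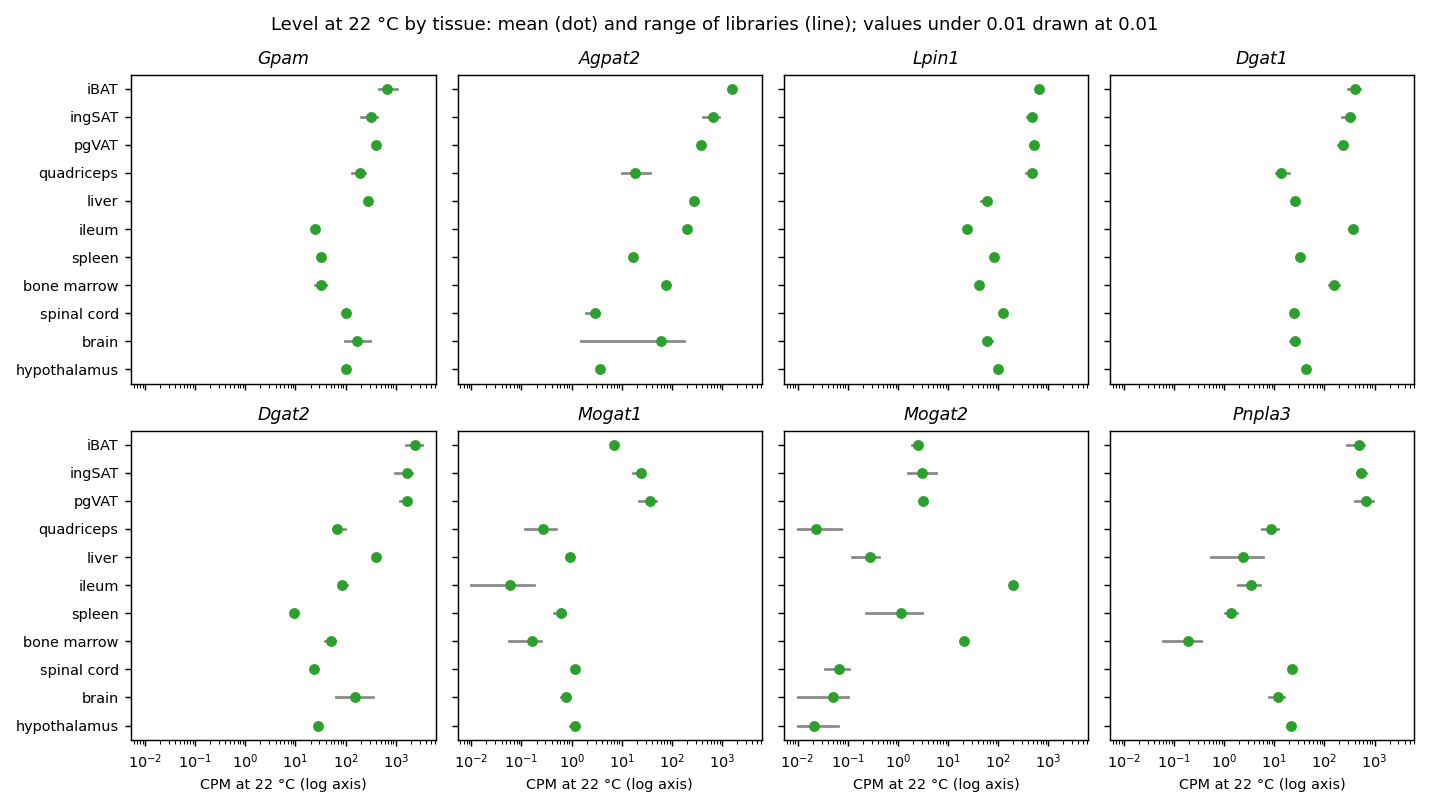
Level of each gene at 22 °C in the 11 tissues, in TMM-scaled CPM on a log axis, with quadriceps from all 6 control libraries and the other tissues from the cold set. Dots are means and lines span the lowest and highest library (values under 0.01 drawn at 0.01), and Pnpla3 drops 21.1 times from iBAT to spinal cord, Mogat2 peaks in ileum at 197 CPM, and the long brain lines of Agpat2 and Dgat2 come from 1 library.

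In iBAT at 10 °C, 3 of the 8 genes rose and none fell, where 11.4% of the 12793 genes tested were called in either direction and 6.53% were higher. Agpat2 and Lpin1, consecutive steps of the glycerol phosphate route, and Mogat1 rose by 1.75 to 2.28 times. At 34 °C, 5 of the 7 tested genes fell, where 28.6% of 12318 genes were called and 15.9% were lower: Gpam, Agpat2, Dgat1, Mogat1 and Pnpla3. Agpat2 and Mogat1 thus rose in the cold and fell in the warm. The median change was 0.67 over the 8 genes at 10 °C and -1.08 over the 7 at 34 °C, with medians of -0.01 and 0.01 over all genes. The cold and warm sets have separate controls and came from different suppliers, so their values are set side by side and not tested against each other.

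Agpat2 showed the widest span in brown fat. In the cold set the controls held 1415, 1638 and 1626 CPM and the 10 °C libraries 3337, 3114 and 3430 CPM. Every cold library lay above every control, a change of 1.08 (SE 0.159, adjusted p = 0.00428, edgeR). In the warm set the controls held 2756, 2561 and 1923 CPM and the 34 °C libraries 284, 784 and 287 CPM, a change of -2.42 (SE 0.416, adjusted p = 0.00686, edgeR). All 34 °C libraries were below all controls, and replicate 2 stood above the others.

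Lpin1 held 586, 696 and 663 CPM at 22 °C and 1072, 1218 and 1114 CPM at 10 °C, a rise of 0.81 (SE 0.141, adjusted p = 0.00872, edgeR) without overlap. In the warm set it held 438, 559 and 503 CPM at 22 °C and 513, 608 and 711 CPM at 34 °C, groups that overlapped, with a change of 0.29 (SE 0.150, adjusted p = 0.177, edgeR). Scaling by library size alone gave 0.57 (adjusted p = 0.0139, edgeR).

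Gpam, at the entry of the route, held 470, 514 and 1043 CPM at 22 °C and 752, 1271 and 930 CPM at 10 °C. The groups overlapped because of control replicate 3, and the change was 0.54 (SE 0.315, adjusted p = 0.302, edgeR); without that library it was 0.9996 (adjusted p = 0.0208, edgeR). At 34 °C the libraries were tight, with 389, 389 and 375 CPM in the controls and 157, 131 and 169 CPM in the warm, a fall of -1.33 (SE 0.114, adjusted p = 0.000958, edgeR).

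The DGAT genes catalyse the same last step. In the cold set Dgat1 held 301, 387 and 514 CPM at 22 °C and 298, 374 and 328 CPM at 10 °C, with a change of -0.27 (SE 0.196, adjusted p = 0.420, edgeR). Dgat2 held 1638, 2322 and 3306 CPM at 22 °C and 1585, 1866 and 1707 CPM at 10 °C, with a change of -0.49 (SE 0.246, adjusted p = 0.229, edgeR). The groups overlapped for both genes, and control replicate 3 was the highest library of each.

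In the warm set Dgat1 held 539, 423 and 416 CPM at 22 °C and 211, 282 and 204 CPM at 34 °C, without overlap, a fall of -0.98 (SE 0.165, adjusted p = 0.00635, edgeR). Dgat2 held 3659, 3128 and 3097 CPM at 22 °C and 2407, 2287 and 3506 CPM at 34 °C, overlapping through 34 °C replicate 3, with a change of -0.27 (SE 0.181, adjusted p = 0.288, edgeR). Scaling by library size alone turned the Dgat2 value to 0.013, and leaving out 34 °C replicate 3 gave -0.49 (adjusted p = 0.0431, edgeR). Whether the DGAT genes differ from each other in their change was not tested.

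Mogat1 was scarce but even among libraries. It held 7.31, 7.15 and 6.68 CPM at 22 °C and 16.2, 16 and 15.9 CPM at 10 °C, a rise of 1.19 (SE 0.130, adjusted p = 0.00101, edgeR). In the warm set it held 13, 13.2 and 9.75 CPM at 22 °C and 2.29, 3.71 and 2.25 CPM at 34 °C, a fall of -2.12 (SE 0.251, adjusted p = 0.00219, edgeR). Neither pair of groups overlapped. Mogat2 had 1.92 to 2.85 CPM in the 6 libraries of the cold set, with a change of -0.05 (SE 0.253, adjusted p = 0.928, edgeR), and was too low to test in the warm set.

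Pnpla3 held 555, 606 and 286 CPM at 22 °C and 1182, 637 and 980 CPM at 10 °C. The groups were apart only by the small gap between control replicate 2 and cold replicate 2, and the change of 0.95 (SE 0.305) had an unadjusted p of 0.0120 and an adjusted p of 0.0779 in edgeR's quasi-likelihood test. In edgeR's exact test, used in the study, its adjusted p was 0.0191, and over the 13 alternatives run it spanned 0.00905 to 0.186. In the warm set Pnpla3 held 545, 636 and 540 CPM at 22 °C and 188, 391 and 232 CPM at 34 °C, a fall of -1.08 (SE 0.257, adjusted p = 0.0201, edgeR) without overlap. Leaving out control replicate 3, 34 °C replicate 1 or 34 °C replicate 3 moved its adjusted p to 0.0519, 0.0546 and 0.0632.

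Other contents of the brown fat libraries moved as well. Summed over 7 brown adipocyte markers, such as Ucp1 and Cidea, the cold set held 8297 to 13528 CPM at 22 °C and 14461 to 18290 CPM at 10 °C, with 2 of 7 higher by test, and the warm set held 10914 to 14780 CPM at 22 °C and 5865 to 7276 CPM at 34 °C, with 4 of 7 lower. The 9 general adipocyte markers summed to 21984 to 24644 CPM at 22 °C and 17647 to 18767 CPM at 10 °C, with 2 of 9 lower by test, and to 21076 to 24353 CPM and 20237 to 23226 CPM in the warm set, with 2 higher and 1 lower. The 7 hepatocyte markers summed to 175 to 383 CPM at 22 °C and 121 to 178 CPM at 10 °C, with 4 of 6 tested lower, and to 105 to 127 CPM and 178 to 416 CPM in the warm set, with the 1 tested higher. The 8 skeletal muscle markers summed to 6357 to 8670 CPM at 22 °C and 2435 to 5081 CPM at 10 °C, with 2 of 8 lower by test. In the warm set 2 control libraries were at 3.36 and 8.84 CPM and the third at 4645 CPM, with 990 to 3718 CPM at 34 °C. Their part in the results was not tested. Scaling by library size alone moved the median of all genes by -0.17 in the cold set and 0.29 in the warm set, and the share of higher genes among those called from 57.3% to 25.3% and from 44.5% to 86%; the 3 rises and the 5 falls named here passed under it too.

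**Figure D2:**
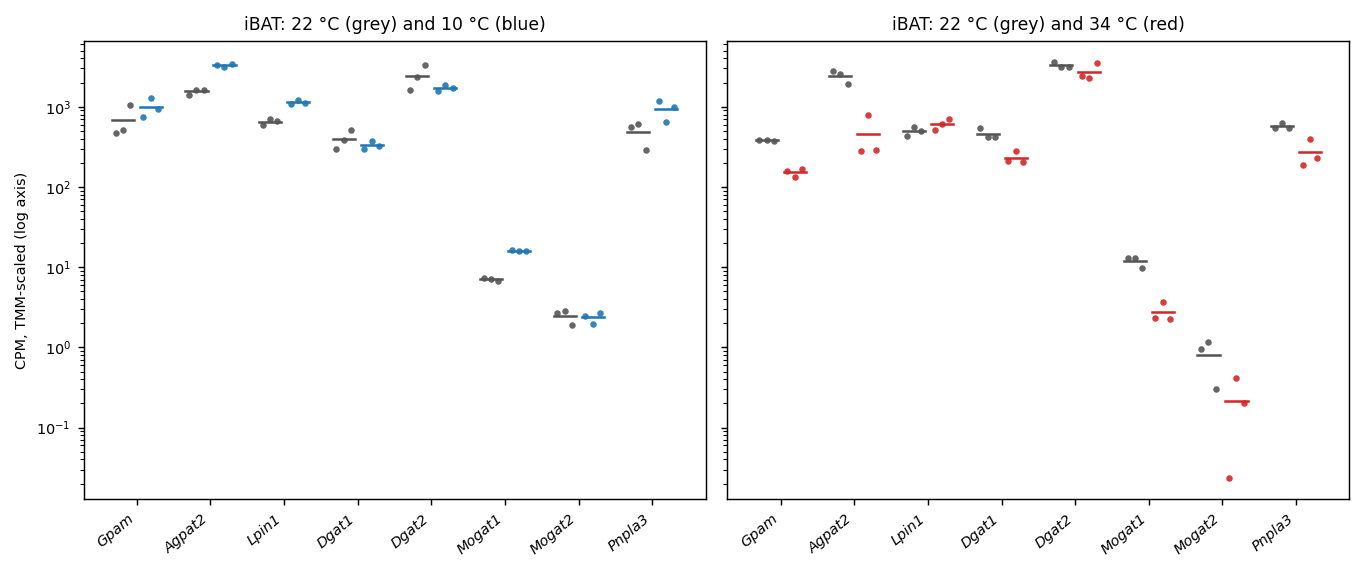
Each library of iBAT in the cold set (left) and the warm set (right), in TMM-scaled CPM on a log axis, with bars at group means; CPM is not divided by gene length, so heights are to be compared within a gene. Agpat2, Lpin1 and Mogat1 lie higher at 10 °C (blue) than at 22 °C (grey), and Gpam, Agpat2, Dgat1, Mogat1 and Pnpla3 lie lower at 34 °C (red).

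In ingSAT at 10 °C, 2 of 8 genes rose, where 7.57% of 13977 genes were called and 4.56% were higher: Agpat2 and Pnpla3. Agpat2 held 862, 714 and 418 CPM at 22 °C and 2399, 1648 and 1856 CPM at 10 °C, a rise of 1.57 (SE 0.301, adjusted p = 0.0294, edgeR). Pnpla3 held 682, 465 and 441 CPM at 22 °C and 1805, 1050 and 1249 CPM at 10 °C, a rise of 1.37 (SE 0.272, adjusted p = 0.0324, edgeR). The groups did not overlap for either gene.

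Both calls in ingSAT were lost in 5 of 6 fits with 1 library left out, and kept without control replicate 3. Leaving out any 10 °C library, or control replicate 1 or 2, gave adjusted p of 0.0591 to 0.125 for Agpat2 and 0.0574 to 0.133 for Pnpla3, with changes of 1.35 to 1.80 and 1.12 to 1.59 over all 6 omissions. The other 6 genes overlapped between groups: Gpam changed by 0.42, Lpin1 by 0.41, Dgat2 by 0.18, Mogat2 by 0.17, Mogat1 by 0.06 and Dgat1 by 0.01, with adjusted p from 0.303 to 0.990 (edgeR). The 7 brown adipocyte markers, all higher by test, summed to 155 to 213 CPM at 22 °C and 2377 to 3049 CPM at 10 °C, while the 9 adipocyte markers held 51131 to 60034 and 41761 to 53553 CPM; their part in these rises was not tested. Of the genes called in ingSAT 60.3% were higher, and 49.7% with scaling by library size alone.

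In pgVAT no gene of the 8 passed, and 0% of 14863 genes did (edgeR's quasi-likelihood test). That share holds for this test only, and the share of all genes under the next rules is not given. Of the 8, 1 had an unadjusted p under 0.05, none passed edgeR's exact test and 1 passed DESeq2. That gene was Agpat2, with 372, 433 and 329 CPM at 22 °C and 771, 1161 and 624 CPM at 10 °C, groups without overlap and a change of 1.17 (SE 0.369, adjusted p = 0.586, edgeR, and 0.0298, DESeq2). Pnpla3 held 944, 681 and 417 CPM at 22 °C and 724, 1190 and 403 CPM at 10 °C, and Gpam 466.3, 411 and 359 CPM and 381, 871 and 356 CPM. For all 8 genes 10 °C replicate 2 was the highest cold library. The 7 epididymis markers summed to 21224, 3.07 and 23194 CPM in the 10 °C libraries and to 2629, 907 and 639 CPM in the controls, and the 9 adipocyte markers to 31998, 76582 and 24374 CPM against 46132 to 80053 CPM, so the library with the least epididymis RNA had the highest values of these genes; the part of the markers in the values was not tested.

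Quadriceps muscle gave the highest fold changes in the cold. Of 6 genes tested, Agpat2 and Pnpla3 rose, where 0.347% of 11824 genes were called and 0.288% were higher. The 22 °C group here is all 6 control libraries, because the labels do not tell which belong to the cold and which to the warm set, so both quadriceps comparisons share controls. Numbered by column, libraries 1 to 3 carry the header prefix of the cold columns and libraries 4 to 6 that of the warm ones. If the prefixes mark the sets, the pooled controls mix mice from Janvier and Charles River, and supplier and set cannot be told apart.

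Pnpla3 in quadriceps held 9.90, 11.8, 7.44, 8.66, 7.51 and 5.72 CPM at 22 °C and 41.8, 44.5 and 26.4 CPM at 10 °C, a rise of 2.14 (SE 0.211, adjusted p = 0.00398, edgeR). Against the 3 controls with the matching prefix, a choice made after the data were seen, the change was 1.97 with an adjusted p of 0.0561. Agpat2 held 15, 14.2, 9.91, 36.8, 21.9 and 14.7 CPM at 22 °C and 90.9, 108 and 42.0 CPM at 10 °C, a rise of 2.09 (SE 0.375, adjusted p = 0.0477, edgeR). Both genes were higher in every cold library than in any control.

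The Agpat2 call in muscle was fragile. Against the prefix-matched controls its change was 2.64 with an adjusted p of 0.0706, and leaving out control library 2, 3, 5 or 6 or cold library 1 or 2 moved the adjusted p to 0.0884 to 0.266. Dgat2 held 54.8 to 99.0 CPM at 22 °C and 107, 124 and 71.4 CPM at 10 °C, with a change of 0.60 (SE 0.204, unadjusted p = 0.0132, adjusted p = 0.284, edgeR). Mogat1 was too low to test, but its cold libraries at 1.06, 0.854 and 0.667 CPM stood above 0.116 to 0.499 CPM in the controls. Gpam, Lpin1 and Dgat1 changed by -0.25, -0.04 and 0.43, with adjusted p from 0.434 to 0.932 (edgeR).

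In quadriceps at 34 °C no gene of 6 passed, nor did any of the 11716 genes (0%, edgeR's quasi-likelihood test). That share holds for this test only, and the share of all genes under the next rules is not given. Of the 6, 3 had an unadjusted p under 0.05, and 1 passed in edgeR's exact test and 1 in DESeq2. Pnpla3 held 5.60 to 11.5 CPM at 22 °C, as scaled with the warm libraries, and 2.72, 3.11 and 3.41 CPM at 34 °C, below every control, with a change of -1.42 (SE 0.211, unadjusted p = 2.78e-05, adjusted p = 0.163, edgeR, and 1.96e-05 in the exact test). Over the 16 alternatives run, 1 of them with only the controls of the matching prefix, the change spanned -1.51 to -1.20. Its adjusted p ran from 4.89e-07 (DESeq2) to 0.9996 (edgeR), and 2 of the 16 passed. Agpat2 held 9.62 to 35.7 CPM at 22 °C and 6.53, 5.86 and 11.5 CPM at 34 °C, with a change of -1.19 (SE 0.387, adjusted p = 0.765, edgeR).

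Fat cell markers were followed in muscle. The 9 adipocyte markers, all tested and none called, summed to 2347, 3083 and 1722 CPM at 10 °C and to 1467, 1755, 1455, 2511, 1494 and 1370 CPM at 22 °C. The control with 2511 CPM was library 4, which also had the highest Agpat2, Dgat1 and Dgat2 of the controls and 8.66 CPM of Pnpla3. At 34 °C the sums were 1293, 1309 and 2634 CPM, and the library at 2634 CPM held 3.41 CPM of Pnpla3 and 11.5 CPM of Agpat2, the highest of the 3 for both. Of the 7 brown adipocyte markers 1 was higher at 10 °C by test, Elovl3, a fatty acid elongase, with 0.0624 ± 0.0660 CPM (SD, n = 6) at 22 °C and 7.84 ± 5.37 CPM (SD, n = 3) at 10 °C (adjusted p = 0.00251, edgeR). Ucp1, the uncoupling protein of brown fat, held 1.45 ± 2.72 CPM (SD, n = 6) and 80.9 ± 47.5 CPM (SD, n = 3) (adjusted p = 0.0641, edgeR), and the 7 summed to 521 to 723 CPM and 545 to 755 CPM. At 22 °C nearly all of that sum came from the other markers of the list, so it is a poor guide to Ucp1 and Elovl3. Both of these genes were named after their values were seen. Cold library 1 also held 167 CPM over 7 epididymis markers, with 0 CPM in the other cold libraries and 0 to 0.125 CPM in the controls. The part of fat cells in the muscle values was not tested.

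**Figure D3:**
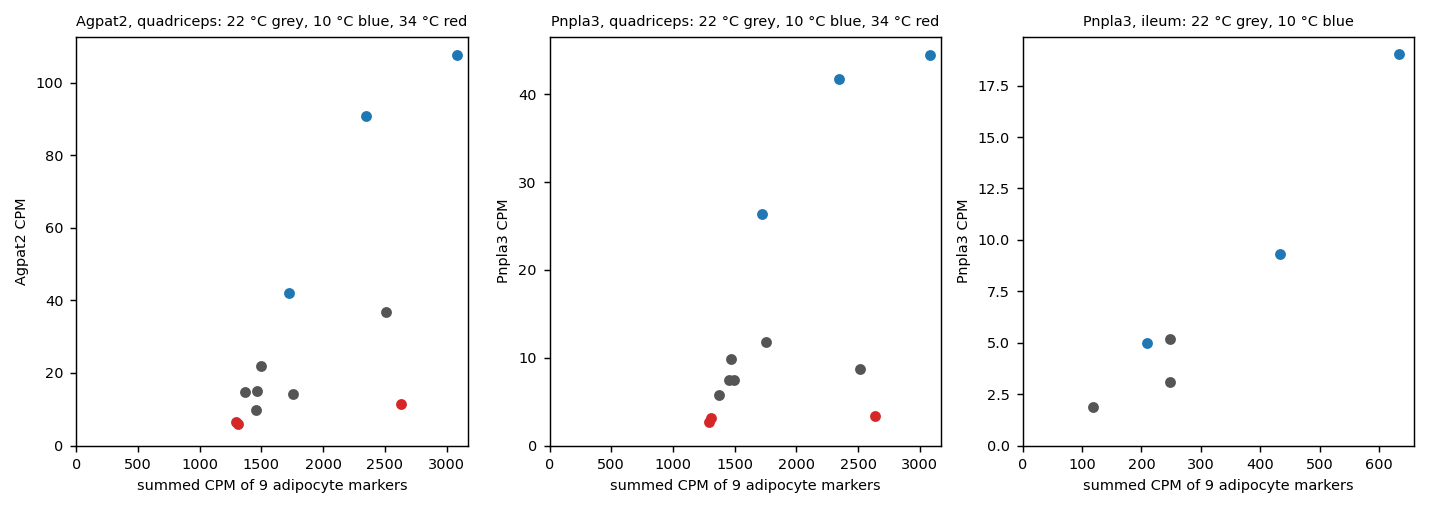
Agpat2 and Pnpla3 in quadriceps and Pnpla3 in ileum, in TMM-scaled CPM (vertical), against the summed CPM of 9 adipocyte markers (horizontal), with 1 point per library at 22 °C (grey), 10 °C (blue) and 34 °C (red). In quadriceps the cold libraries hold 26.4 to 44.5 CPM of Pnpla3 and the control at 2511 CPM of markers holds 8.66, and in ileum the library with the highest marker sum, 634 CPM, has the highest Pnpla3, 19 CPM.

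In liver none of the 6 genes tested passed at either temperature (edgeR's quasi-likelihood test, exact test and DESeq2), with 0% of 12028 genes called at 10 °C and 0.385% of 11179 at 34 °C. At 10 °C 2 of the 6 had an unadjusted p under 0.05. Dgat2 held 383, 379 and 438 CPM at 22 °C and 470, 467 and 543 CPM at 10 °C, without overlap, with a change of 0.30 (SE 0.0948, adjusted p = 0.157, edgeR). Gpam held 270, 268 and 293 CPM at 22 °C and 281, 354 and 357 CPM at 10 °C, with a change of 0.26 (SE 0.103, adjusted p = 0.232, edgeR).

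At 34 °C 1 of the 6 in liver had an unadjusted p under 0.05, Agpat2, with a change of -0.32 (SE 0.138, adjusted p = 0.437, edgeR). Pnpla3 was at most 2.01 CPM in the liver libraries apart from 5.96 CPM in a control of the cold set and 4.59 CPM in a library at 34 °C. Its changes were -0.95 (SE 0.837) at 10 °C and 1.84 (SE 0.961) at 34 °C, with overlap in both. In the same warm library, 34 °C replicate 2, Gpam stood at 238 CPM beside 86.2 and 97.4 CPM in the others.

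In ileum at 10 °C no gene of 7 passed edgeR's quasi-likelihood test, where 0.0781% of 14081 genes did. That share holds for this test only, and the share of all genes under the next rules is not given. Of the 7, 4 had an unadjusted p under 0.05, 1 passed edgeR's exact test and 3 passed DESeq2. Dgat1 held 316, 385 and 393 CPM at 22 °C and 479, 473 and 450 CPM at 10 °C, with a change of 0.36 (SE 0.0950, adjusted p = 0.153, edgeR, and 0.0158, DESeq2). Agpat2 held 206, 187 and 205 CPM at 22 °C and 258, 286 and 219 CPM at 10 °C, with a change of 0.35 (SE 0.103, adjusted p = 0.176, edgeR, and 0.0463, DESeq2). Mogat2, which rebuilds diacylglycerol from absorbed monoacylglycerol, held 173, 203 and 214 CPM at 22 °C and 238, 273 and 216 CPM at 10 °C, with a change of 0.30 (SE 0.112, adjusted p = 0.248, edgeR).

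Dgat1, Agpat2 and Mogat2 lay higher in every cold ileum library than in any control, but none passed the quasi-likelihood test. With 3 libraries in a group such gaps also arise by chance, and the share of all genes without overlap is not given. Pnpla3 held 5.17, 1.88 and 3.08 CPM at 22 °C and 19, 9.34 and 5.01 CPM at 10 °C, with a change of 1.74 (SE 0.528, adjusted p = 0.185, edgeR, and 0.00967, DESeq2). The 7 enterocyte markers summed to 10067 to 11166 CPM at 22 °C and 15055 to 15205 CPM at 10 °C, and the 9 adipocyte markers to 248, 118 and 248 CPM and to 634, 434 and 209 CPM; their part in these values was not tested. At 34 °C no gene of 7 passed in ileum, 0 had an unadjusted p under 0.05, none passed the exact test or DESeq2, and 0% of 13020 genes were called in edgeR's quasi-likelihood test. Dgat1 there held 627, 597 and 544 CPM at 22 °C and 556, 1017 and 809 CPM at 34 °C. In the same order of libraries the enterocyte markers summed to 12336, 13705 and 10105 CPM at 22 °C and to 9680, 25002 and 20557 CPM at 34 °C. The 6 B cell markers summed to 276, 68.4 and 401 CPM and to 174, 5.30 and 6.40 CPM. The part of these markers in the 34 °C values was not tested.

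In spleen none of the 6 genes tested passed, where 0.0921% of 14113 genes did; 2 had an unadjusted p under 0.05 and none passed the exact test or DESeq2. Pnpla3 held 1.77, 1.31 and 1.05 CPM at 22 °C and 2.6, 1.62 and 3.25 CPM at 10 °C, with a change of 0.82 (SE 0.329, adjusted p = 0.477, edgeR), and the adipocyte markers summed to 71.5 to 141 CPM at 22 °C and 91.9 to 190 CPM at 10 °C. Lpin1 held 79.0, 84.2 and 83.9 CPM at 22 °C and 65.0, 73.3 and 76.7 CPM at 10 °C, with a change of -0.20 (SE 0.0813, adjusted p = 0.477, edgeR).

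Bone marrow had 6 single mice in a group, and its changes were small. Of 6 genes tested 4 passed, where 19.1% of 12525 genes did (7.32% higher and 11.8% lower). None of the 4 reached a fold of 1.5. Gpam rose, and Agpat2, Dgat1 and Dgat2 fell. Gpam ran from 24.7 to 41.4 CPM (median 29.8) at 22 °C and from 36.9 to 48.0 CPM (median 41.3) at 10 °C, a rise of 0.38 (SE 0.113, adjusted p = 0.0290, edgeR) with overlap. Agpat2 ran from 65.6 to 81.2 CPM (median 74.0) at 22 °C and from 53.0 to 63.1 CPM (median 56.3) at 10 °C, a fall of -0.38 (SE 0.0597, adjusted p = 0.00267, edgeR) without overlap.

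Dgat1 in marrow ran from 124 to 196 CPM (median 152) at 22 °C and from 93.6 to 146 CPM (median 107) at 10 °C, a fall of -0.44 (SE 0.113, adjusted p = 0.0164, edgeR). Dgat2 ran from 38.1 to 62.8 CPM (median 51.6) at 22 °C and from 33.1 to 41.9 CPM (median 39.3) at 10 °C, a fall of -0.38 (SE 0.0967, adjusted p = 0.0150, edgeR). Both overlapped between groups. Mogat2, present in marrow at 16 to 22.6 CPM, changed by -0.19 (SE 0.0705, adjusted p = 0.0714, edgeR), and Lpin1 by 0.08 (adjusted p = 0.325, edgeR). Of 6 B cell markers 4 were higher at 10 °C by test, with sums of 688 to 812 CPM against 496 to 691 CPM; their part in these values was not tested.

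In nervous tissue none of the genes passed: 7 were tested in spinal cord (0.00695% of 14383 genes called), 7 in hypothalamus (0% of 14526), 6 in brain at 10 °C (0% of 14416) and 6 in brain at 34 °C (0% of 13979). In edgeR's quasi-likelihood test the unadjusted p was under 0.05 for 1 in spinal cord, 0 in hypothalamus, 0 in brain at 10 °C and 1 in brain at 34 °C, and none passed the exact test or DESeq2. Pnpla3, an adipose gene by level, was also steady here, with 19.99 to 25.1 CPM in the 10 spinal cord libraries (change -0.01, SE 0.0723) and 18 to 22.3 CPM in the 6 hypothalamus libraries (change -0.11, SE 0.0882). Lpin1 was the gene with the low unadjusted p in brain at 34 °C, with 38, 40.9 and 42.5 CPM at 22 °C and 33.7, 34.5 and 36 CPM at 34 °C (change -0.22, SE 0.0675, adjusted p = 0.999, edgeR).

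The brain library at 22 °C with hepatocyte markers stood apart in these genes too. It held 178 CPM of Agpat2 beside 1.54 and 2.10 in the other controls and 1.84 to 2.27 at 10 °C, 344 CPM of Dgat2 beside 63.1 and 63.9, and 310 CPM of Gpam beside 98.0 and 99.8. With it the changes at 10 °C were -4.90 (SE 2.02) for Agpat2, -1.44 (SE 0.729) for Dgat2 and -0.71 (SE 0.489) for Gpam. Without it they were 0.12 (SE 0.246), -0.13 (SE 0.0815) and 0.06 (SE 0.0746), and none passed (adjusted p = 0.675 to 0.910, edgeR).

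**Figure D4:**
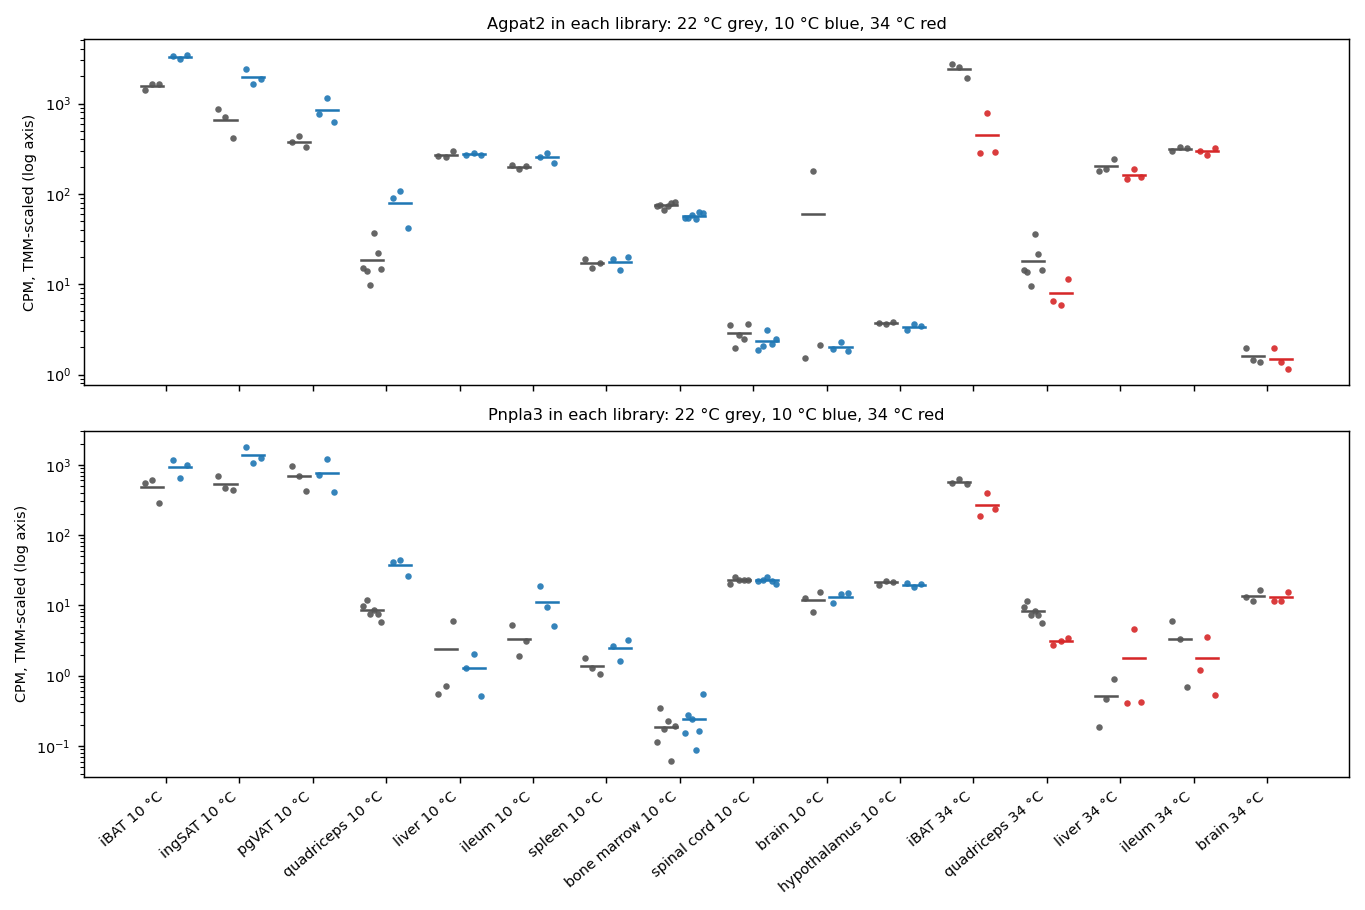
Agpat2 (top) and Pnpla3 (bottom) in every library of the 16 comparisons, in TMM-scaled CPM on a log axis, with bars at group means, for 22 °C (grey), 10 °C (blue) and 34 °C (red). Both are higher at 10 °C in ingSAT and quadriceps and lower at 34 °C in iBAT; the lone grey Agpat2 point in brain, 178 CPM, is the library with hepatocyte markers.

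Over all comparisons, 11 of 75 tests of these genes passed at 10 °C, 8 higher and 3 lower, and 5 of 32 at 34 °C, all 5 lower. With other limits, an unadjusted p up to 0.05 together with more than 1.5-fold, 12 of the 75 tests passed at 10 °C and 7 of the 32 at 34 °C. At 10 °C these were 4 genes in iBAT, 3 in quadriceps, 2 in ingSAT and 1 each in pgVAT, ileum and spleen, and at 34 °C 5 in iBAT and 2 in quadriceps. The share of all genes within these limits at 10 °C was 13.2% in iBAT, 16.4% in ingSAT, 8.17% in pgVAT, 3.27% in quadriceps, 3.2% in liver, 2.73% in ileum and in brain, 2.71% in spleen, 1.26% in bone marrow, 0.578% in hypothalamus and 0.271% in spinal cord. At 34 °C the share ran from 19.4% (iBAT) through 3.39% (liver), 2.91% (ileum) and 1.24% (quadriceps) to 0.193% (brain). Agpat2 was called in 5 of its 16 comparisons and Pnpla3 in 3 of 15, Gpam, Dgat1 and Mogat1 in 2 each, Lpin1 and Dgat2 in 1 each and Mogat2 in 0 of 6. The filter on low counts was passed by Mogat1 and Mogat2 in 6 comparisons each.

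**Figure D5:**
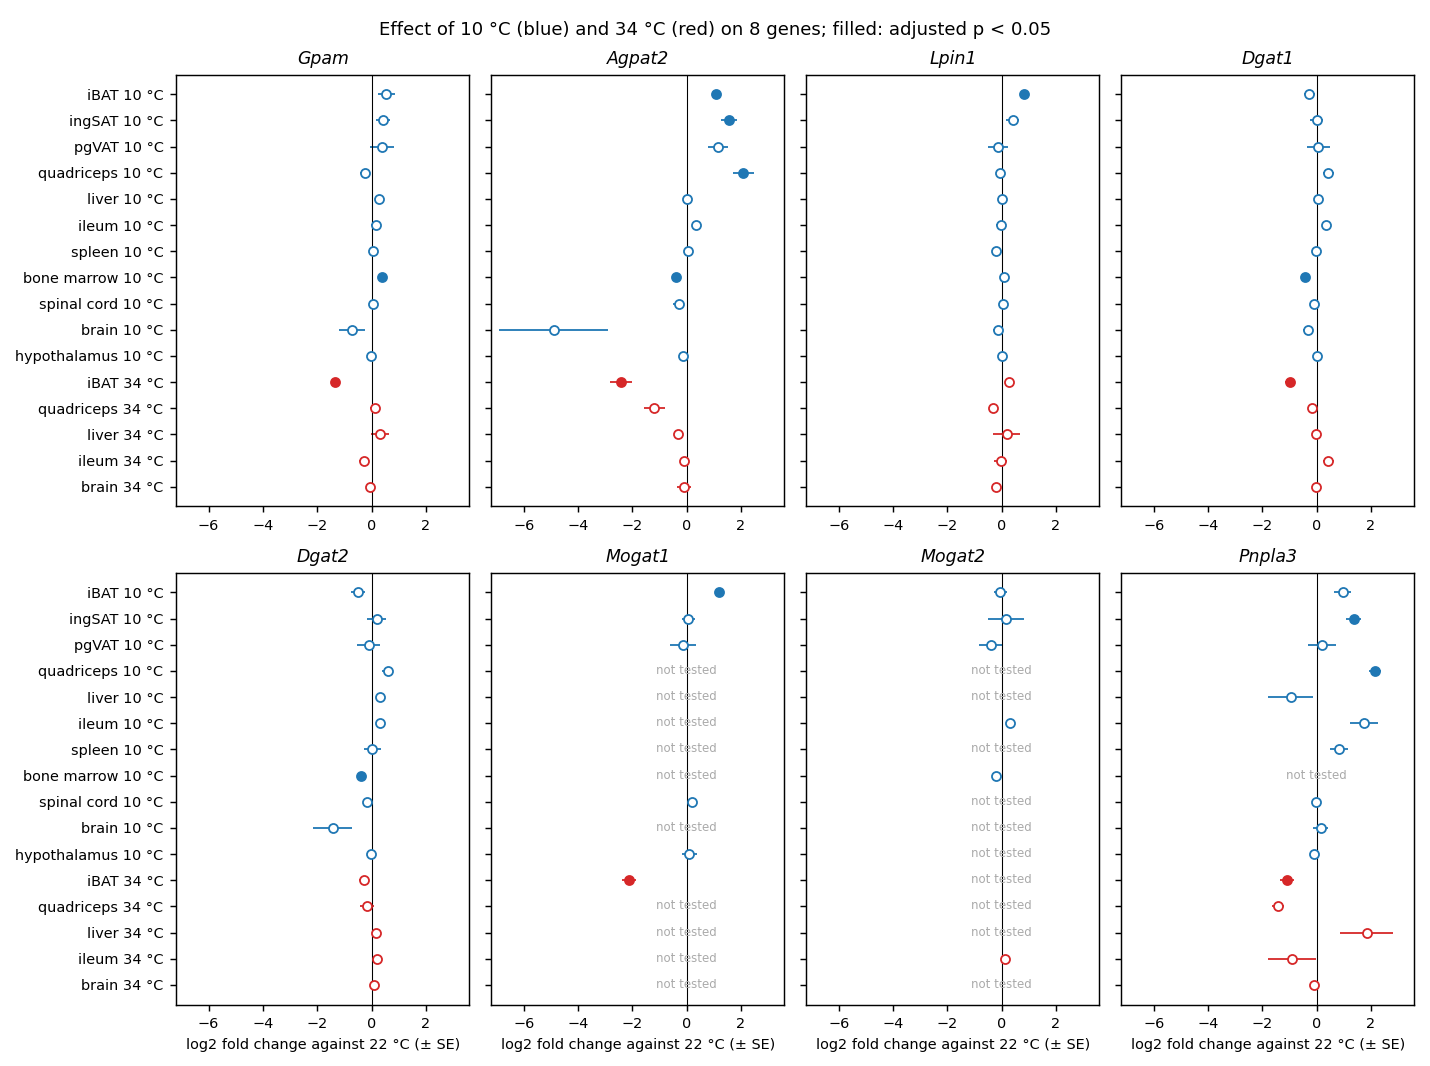
Change of each gene against 22 °C (log2 fold change, horizontal, with SE bars) in 11 tissues at 10 °C (blue) and 5 at 34 °C (red); filled points have an adjusted p under 0.05. Filled points of Agpat2 and Pnpla3 lie right of 0 in ingSAT and quadriceps at 10 °C and left of 0 in iBAT at 34 °C, and the wide bar of Agpat2 in brain reflects 1 library.

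Effects were also compared between tissues of the same table, as the interaction of tissue and temperature. At 34 °C the fall in iBAT differed from the change in liver for Gpam (difference -1.69, adjusted p = 0.00270, edgeR), Agpat2 (-2.14, adjusted p = 0.00768) and Dgat1 (-0.99, adjusted p = 0.0211). It differed from ileum for the same 3 genes, and from quadriceps for Gpam and Dgat1. Mogat2 also passed between iBAT and ileum (-2.04, adjusted p = 0.0148, edgeR), but no fall in iBAT is read from it. For Pnpla3, Lpin1, Dgat2 and Mogat1 no difference between these tissues passed at 34 °C, and none passed between liver and quadriceps. Mogat1 was too low to test on its own in liver, ileum or quadriceps, and Mogat2 in iBAT, liver or quadriceps. Mogat1 entered this fit through its level in iBAT, so its results here decide little. At 10 °C the pairs tested were iBAT and ingSAT, iBAT and liver, ingSAT and liver, and ingSAT and pgVAT. None differed for any of the genes (edgeR, adjusted p under 0.05). A rise in a tissue without a call in another thus does not show that they respond differently. The fit at 10 °C also held the brain library with hepatocyte markers and the pgVAT libraries with epididymis markers. For Agpat2 in iBAT against liver it gave a difference of 1.06 (SE 0.976). Fitted alone, Agpat2 had an SE of 0.159 in iBAT and 0.082 in liver. For iBAT against ingSAT the joint fit had an SE of 0.510 for Mogat1 and 0.761 for Pnpla3. Fitted alone, these SEs were 0.130 and 0.239 for Mogat1 and 0.305 and 0.272 for Pnpla3. For Dgat2 in iBAT against liver the SE was 0.552, and alone it was 0.246 and 0.0948. With SEs this wide, the lack of a difference at 10 °C decides little for Agpat2, Mogat1, Pnpla3 and Dgat2.

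The rest of the pathway was followed with 26 other genes. In iBAT at 10 °C 3 of 22 tested rose and 1 fell, where 11.4% of all genes were called. Acsl5, an acyl-CoA synthetase that activates fatty acids, rose by 2.02 (SE 0.223), Gpd1, which makes glycerol 3-phosphate from a glycolysis intermediate, by 1.21 (SE 0.216) and Acsl3 by 0.55 (SE 0.127). Gpat3, another enzyme of the first acylation, fell by 1.81 on the log2 scale (SE 0.370, adjusted p = 0.00109 to 0.0249 for the 4, edgeR).

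In ingSAT at 10 °C 4 of 23 rose and 1 fell, where 7.57% of all genes were called. Gyk, glycerol kinase, rose by 2.62 (SE 0.157), Gpd1 by 1.52 (SE 0.316), Acsl5 by 1.5 (SE 0.153) and Acsl3 by 1.34 (SE 0.259), while Pck1, the enzyme of glyceroneogenesis, fell by 1.33 on the log2 scale (SE 0.193, adjusted p = 0.00199 to 0.0367 for the 5, edgeR). In quadriceps at 10 °C Acsl5 was the 1 called of 21 (0.347% of all genes), with 1.58 (SE 0.244, adjusted p = 0.0289, edgeR). In bone marrow, with 19.1% of all genes called, 5 of 18 rose and none fell. Chosen after their values were seen, these were Gpd1, Acsl6, Agpat3, Agpat4 and Lpin2, with changes of 0.16 to 0.69.

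In iBAT at 34 °C 11 of 20 fell and none rose, where 28.6% of all genes were called, with a median of -0.47 over the 20. Gyk fell by 3.07 on the log2 scale (SE 0.226), Acsl5 by 2.35 (SE 0.212), Acsl1, the main long-chain synthetase of adipocytes, by 1.35 (SE 0.116) and Bscl2, the droplet assembly protein seipin, by 1.01 (SE 0.124). The others that fell were Acsl3, Gpd1, Gpat4, Pck1, Fitm2, Acsl4 and Agpat1, by 1.02 to 0.43 on the log2 scale. In the other 11 comparisons none of the 26 was called by edgeR's quasi-likelihood test.

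Of the 2 regulators followed, Srebf1, which encodes the lipogenic factor SREBP-1, rose in iBAT at 10 °C by 0.69 (SE 0.160, adjusted p = 0.0260, edgeR), and Mlxipl, which encodes the carbohydrate-responsive factor ChREBP, rose by 0.91 (SE 0.200, adjusted p = 0.0211) in iBAT and by 1.45 (SE 0.179, adjusted p = 0.00853) in ingSAT at 10 °C. Neither passed in any other comparison in which it was tested.

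As a description, the genes whose changes were most like each member's were found by Pearson's r across comparisons, which share controls in quadriceps and include the odd brain library. Over 16 comparisons and 8742 genes, Agpat2 was most like Pygl (0.97), which encodes liver glycogen phosphorylase, Plin2 (0.96), a lipid droplet coat protein, and Slc25a10 (0.94), the mitochondrial dicarboxylate carrier; without the brain comparison at 10 °C these were 0.93, 0.92 and 0.87. Pnpla3, over 15 comparisons, was most like Megf9 (0.81), 1700017B05Rik (0.81) and Ypel2 (0.80), and with Agpat2 it gave 0.47, or 0.68 without brain. Dgat2 was most like Cdo1 (0.93), G0s2 (0.90), an inhibitor of triglyceride lipase, and Cd302 (0.89), which became 0.80, 0.78 and 0.66 without brain.

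Gpam was most like Iars2 (0.92), Mcat (0.91) and Arih2 (0.91), Lpin1 like Zfp938 (0.86), Spns1 (0.85) and Bicd2 (0.84), and Dgat1 like Nt5e (0.86), Acvr2a (0.82) and Tor2a (0.81). With 6 comparisons each, Mogat1 was most like Urb1, Ephb2 and Nadk (0.993 to 0.998) and Mogat2 like Txndc17, Tmem205 and Crat (0.96 to 0.97). No member was among the 3 genes most like another.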

How the data were processed

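The authors deposited raw counts of reads per gene in 4 tables: 8 tissues of the cold set, the tissues of the warm set with all quadriceps libraries, bone marrow, and spinal cord. Per the labels, the processing used STAR 2.5.3a, Picard 1.141, HTSeq 0.6p1 and mm10. Libraries were made with NEBNext Ultra kits in the 8-tissue table and with TruSeq stranded kits for bone marrow, spinal cord and the warm set. For quadriceps the labels give the TruSeq kit throughout, while the methods name it only for the 34 °C experiment. The treatment label reads 34 °C for every sample, so groups were taken from titles and tissue labels.

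Each tissue was fitted alone with edgeR 4.0.16 in R 4.3.3: TMM scaling, genes with an average log2 CPM above 0, the quasi-likelihood F-test (two-sided) and Benjamini-Hochberg adjustment over all genes tested. The SE is the absolute log2 fold change divided by the square root of F. Tables were normalized separately. Alternatives were edgeR's exact test, DESeq2 1.42.0, other scalings and filters, a replicate block, the study's limits, and each library left out. Differences between tissues were interaction terms in 1 fit per table, adjusted over all genes. On simulated counts for iBAT at 10 °C (12793 genes, 200 changed), 84% of 2-fold and 40% of 1.5-fold changes were called. Every simulated gene had the spread usual for its level, so these shares do not hold for genes that vary more. Libraries are pools of 2 mice or single mice, and pooling averages out part of the spread between animals.

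Named genes were the 8 members, genes of the pathway and regulator lists called in fat or quadriceps, and the 3 genes most like each member; others are marked in the text as named after their values were seen. Members and lists were chosen with earlier results of these data known. Figures were drawn with matplotlib 3.10.9, and gene positions are from GENCODE M21.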

Additional observations from a re-analysis of the deposited data

Results flagged for a closer look

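The groups of 4 or more libraries (quadriceps at 22 °C, bone marrow and spinal cord) gave 34 sets of values of 1 gene in 1 group. The test for a library far from the others picked 2 of them, where chance picks about 1 in 20. Both belong to quadriceps at 22 °C, library 4: Dgat1 at 19.5 CPM beside 10.9 to 13.2 CPM, and Dgat2 at 99.0 CPM beside 54.8 to 67.1 CPM. That library also held the highest adipocyte marker sum of the controls, 2511 CPM.

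Of 64 tests of a difference between tissues, 9 passed, all at 34 °C. For Agpat2, Mogat1, Pnpla3 and Dgat2 the tests at 10 °C decide little. The share of all genes that passed these tests is not given, so the count is not read as a trait of these genes. In the single-tissue fits at 34 °C, 28.6% of all genes were called in iBAT, 0.385% in liver and 0% in ileum and in quadriceps. The effect in iBAT was lower than in liver by a log2 difference of -1.69 for Gpam, -2.14 for Agpat2 and -0.99 for Dgat1. It was lower than in ileum by -1.10 for Gpam, -2.38 for Agpat2 and -1.47 for Dgat1. A Mogat2 difference from ileum of -2.04 is also among the 9, but that gene had 1 to 39 counts in an iBAT library, was too low to test there and entered the fit through its level in ileum, so no fall in iBAT is read from it. It was lower than in quadriceps by -1.47 for Gpam and -0.83 for Dgat1.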

How the results depend on the processing

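The number of the 8 genes called stayed within 1.5 times its reported value in iBAT at both temperatures under every alternative run. In pgVAT at 10 °C it went from 0 to 1 in DESeq2 and under the study's limits. In ileum at 10 °C it went from 0 to 1 in the exact test, 3 in DESeq2 and 1 under the study's limits, and in spleen from 0 to 1 under the study's limits. In quadriceps at 34 °C it went from 0 to 1 in the exact test, 1 in DESeq2 and 2 under the study's limits. In quadriceps at 10 °C it went from 2 to 1 with scaling by library size, and to 0 with 3 controls of the matching header prefix, added after the data were seen. In bone marrow it went from 4 to 0 under the study's limits, since no change there reached 1.5-fold. With 1 library left out, the count ran from 0 to 2 in ingSAT and from 1 to 2 in quadriceps at 10 °C. Apart from the bone marrow case, the cause was not tested. Values that changed sign included Mogat2 in iBAT at 10 °C, which ran from -0.22 to 0.071 with 1 library left out, and Dgat2 in iBAT at 34 °C, at 0.013 with scaling by library size. In brain at 10 °C, leaving out the library with hepatocyte markers turned Agpat2 from -4.90 to 0.12, Gpam from -0.71 to 0.06, Lpin1 from -0.13 to 0.08 and Pnpla3 from 0.15 to -0.09. Same-numbered libraries did not pair: in none of 10 tissues did every pair correlate above 0.1 (r from -0.69 to 0.43). The replicate block left every count of called genes within 1.5 times; in it Pnpla3 in iBAT at 10 °C passed (0.98, adjusted p = 0.0402) and Dgat1 in bone marrow did not (adjusted p = 0.0551, edgeR). Fits by quadriceps sample titles were not run, because those columns could be tied only to their group. Bone marrow libraries were not left out one at a time.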
